A study of Saccharomyces cerevisiae with 18 samples.

Results

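The 34 genes described here code for the machinery of RNA polymerases I and III in Saccharomyces cerevisiae. They were taken by ORF name as the subunits of both enzymes, the subunits of the assembly factors TFIIIC and TFIIIB, and the regulators RRN3 and MAF1. They are 34 of the 6650 named ORFs in the authors' table, and all 34 had a value in each of its 6 columns. By role they comprise 7 subunits of polymerase I only, 10 of polymerase III only, 2 common to these enzymes, 5 that polymerase II also uses, 6 of TFIIIC, 2 of TFIIIB and the 2 regulators.

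Messenger RNA was profiled in strain BY4741, a haploid laboratory strain, edited at RXT3 or at PHO23. Both genes belong to Rpd3L, a histone deacetylase complex. The 6 groups, with 3 libraries listed for each, are by title a deletion of RXT3, the T73 allele in place of RXT3, the CLIB215 allele in place of RXT3, and the same 3 changes at PHO23. T73 and CLIB215 are other strains of the species. The cells of every group were grown in rich medium with xylulose, a pentose sugar, started at an OD of 0.1 and harvested in log phase. How many independent clones stand behind a group, and which marker was used for the edits, are not stated in the labels.

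The table holds 1 pooled value per group and ORF, so that no replicate error, no test and no p-value can be given for any difference, and a difference between columns has no replicate check. The values are on a log scale whose base is not stated, read here as log2, and were read as centred for each ORF, by a rule that is not stated. The table bears this out in part only, since of 208 ORFs listed in 1 column 126 had the value 0, of 124 listed in 2 columns 39 summed to 0, and no complete ORF did. A value is therefore neither an expression level nor a change against unmodified BY4741, and levels of different genes cannot be compared. Depth per library is unknown. Differences between columns are given in log units, with the first-named strain minus the second, and a size of 1 unit or more, which is 2-fold on a log2 scale, is counted as a description. For counts with the columns as titled and unscaled, the background is the same count over the 4956 ORFs with a value in all columns.

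As checks on the labels, PHO23 lacked a value in its own deletion column, whereas RXT3 had -0.05 in the column labelled RXT3 deleted, within its range of -0.36 to 0.23 over all columns. The RXT3 deletion was thus not visible at its own gene, and that group is called the column labelled RXT3 deleted. LEU2 and MET17, which BY4741 is known to lack, had no value in any column, and URA3, which it also lacks, was listed in 1 column only, that of the PHO23 T73 allele. For 3 groups the genotype field of the samples names another strain than their titles do, namely for RXT3 T73, RXT3 CLIB215 and PHO23 deleted. Titles were used, since the column headers repeat them. PHO23 had -0.07 in the column titled RXT3 T73, which the genotype field would make the PHO23 deletion, and no value only in the column titled PHO23 deleted. Medians and counts over all members that move with this choice are still given, beside the results or in the closing sections. Most differences of single genes move as well, and few of these are given. A value without an alternative beside it therefore rests on the titles. PHO23 itself had 0.35 with PHO23 T73 and -0.88 with PHO23 CLIB215, a difference of 1.23 for T73 over CLIB215. It had -0.61 with RXT3 CLIB215 and 0.12 in the column labelled RXT3 deleted. What lies behind these values was not tested. Values were more spread over all ORFs in the columns of PHO23 deleted and PHO23 CLIB215 (SD over ORFs 0.421 and 0.422) than in the other columns (0.282 to 0.319).

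RNA polymerase I transcribes the large ribosomal RNA precursor in the nucleolus, and RNA polymerase III makes the 5S ribosomal RNA, the transfer RNAs and other short RNAs. TFIIIC binds the internal promoters of polymerase III genes and places TFIIIB, which recruits the enzyme. Rrn3 binds polymerase I and makes it competent to start, and Maf1 represses polymerase III when nutrients are poor. The genes of these enzymes are themselves read by polymerase II, and many are known to share promoter elements with genes of ribosome assembly, the PAC element (named for polymerases A and C) and the RRPE element.

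Because the members can be compared through these elements, the 250 bases before the annotated start of each gene were searched in the reference genome of build R64. PAC was searched as GATGAG and RRPE as AAAATTTT, on both strands, each independently of the other. PAC was found before 16 of the 19 subunits that polymerase II does not use, or 84.2%, against 17.0% of 6020 protein-coding genes with a full window. RRPE was found before 12 of these 19 (63.2%), against 8.62% of all genes, and both elements stood before the same 12, against 4.07% of all genes. The 15 other members held PAC in 2 cases, before TFC6 and RRN3, and RRPE in 3, before RPB5, RPO26 and RRN3. Among the 19, only RPA12, RPC17 and RPC11 had neither element in the window. PAC was first described in genes of this kind, so that its presence here is a property of the set and not a result of the experiment.

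The stretches shown are those before the largest and second largest subunits of both enzymes, a subunit they share, the regulator RRN3 and 3 other subunits that are named in the comparisons. They come from the RefSeq genome of build R64 and not from the strains studied. Each is written 5′ to 3′ on the strand of its gene, with each PAC match (GATGAG, or CTCATC for the other strand) and each RRPE match within it in capitals.
RPA190: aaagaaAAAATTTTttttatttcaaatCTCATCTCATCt
RPA135: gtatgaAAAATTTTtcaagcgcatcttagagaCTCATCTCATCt
RPA49: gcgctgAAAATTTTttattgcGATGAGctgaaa
RPA43: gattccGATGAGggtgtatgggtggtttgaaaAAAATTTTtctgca
RPC40: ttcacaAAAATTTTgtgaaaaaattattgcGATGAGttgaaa
RPO31: tttaaaCTCATCactggt
RET1: ttgtgaGATGAGctgAAAATTTTtcgatc
RPC34: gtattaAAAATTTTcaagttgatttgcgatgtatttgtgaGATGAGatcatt
RRN3: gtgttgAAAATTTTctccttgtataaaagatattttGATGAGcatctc

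The stretch before RPA190 lies at chrXV:960788-960826 on the plus strand, that before RPA43 at chrXV:960325-960370 on the minus strand, and both fall in the region between these divergent genes. The one before RPA135 lies at chrXVI:581294-581337, before RPC40 at chrXVI:746907-746948, before RPA49 at chrXIV:182727-182759 and before RPC34 at chrXIV:635347-635398, all on the minus strand. RPO31 and RET1 have theirs at chrXV:544232-544249 and chrXV:733564-733592 on the minus strand, and RRN3 at chrXI:208037-208084 on the plus strand. RPA190 and RPA135 each hold a PAC pair that overlaps by its outer letter. Over the 19 subunits, the 19 PAC matches lay 54 to 240 bases before the start, with a median of 117.

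**Figure D1:**
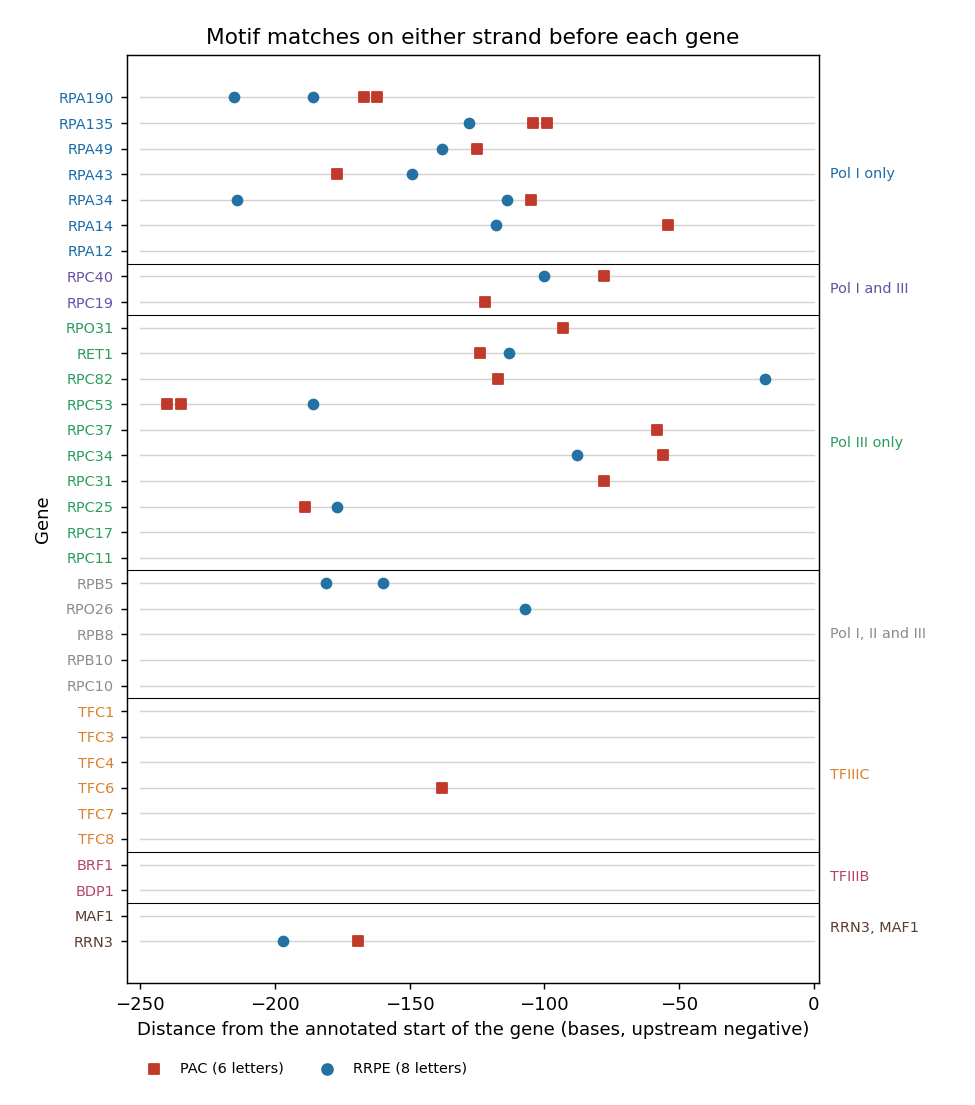
Positions of PAC matches (squares) and RRPE matches (circles) on either strand in the 250 bases before the annotated start of each member, in bases from the start on the x axis, with members grouped by role down the page. Matches crowd in the subunits that polymerase II does not use, while RPA12, RPC17 and RPC11 have none, and TFIIIC has a single PAC match, before TFC6.

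Across the 6 columns, the 19 subunits outside polymerase II had their highest value in 1 of 2 columns. It lay in the column of PHO23 deleted for 9 of them and in that of PHO23 CLIB215 for the other 10, while over all complete ORFs these columns held the highest value for 19.0% and 18.5%. Their lowest value was never in either column, against 21.2% and 23.5% of all complete ORFs. The medians of the 19 values were 0.44 for PHO23 deleted and 0.58 for PHO23 CLIB215, against -0.19 for PHO23 T73, and -0.18, 0.03 and -0.19 for the columns of RXT3 labelled deleted, T73 and CLIB215. The 5 subunits shared with polymerase II ranged less over the columns, with a median range of 0.39 units against 1.03 for the 19 and 0.76 for all complete ORFs.

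**Figure D2:**
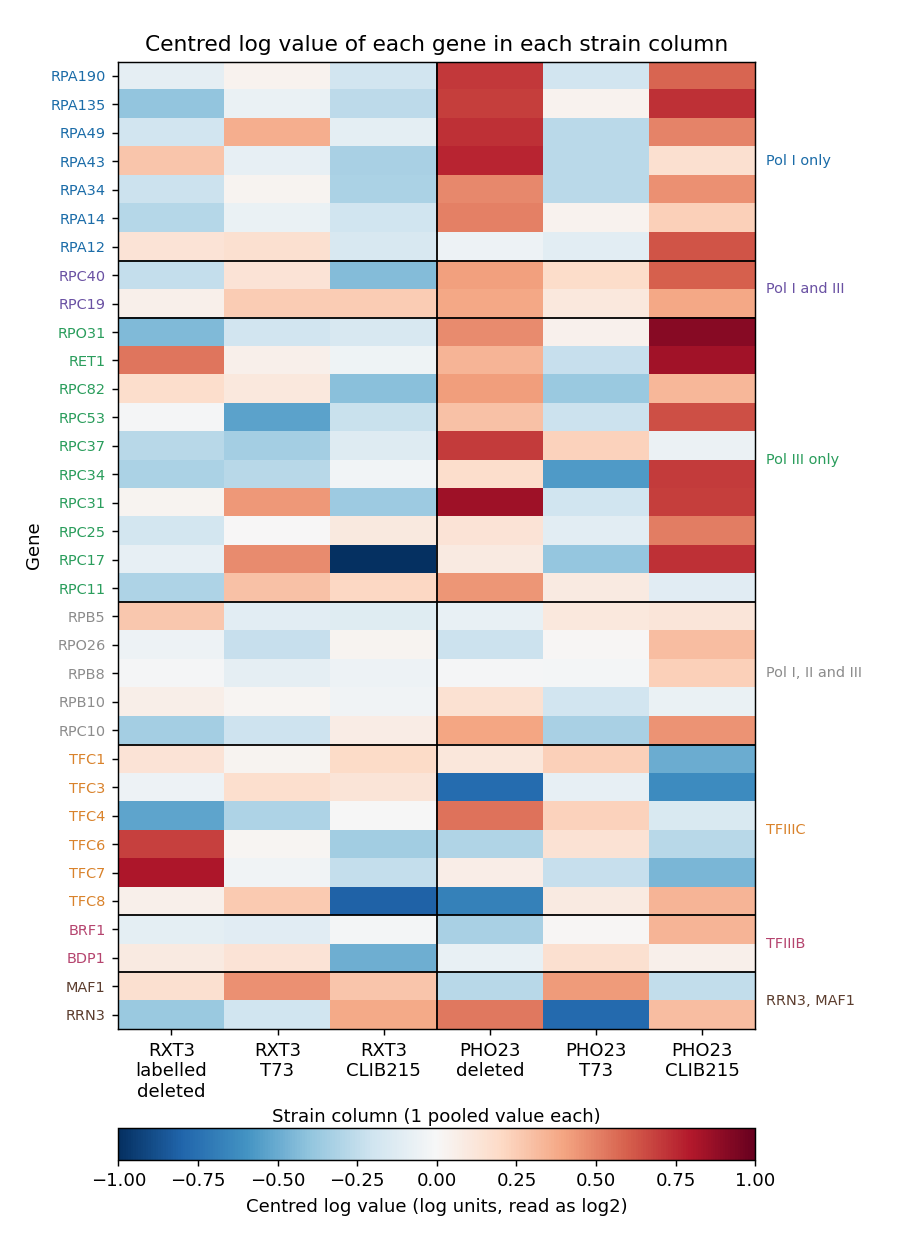
Centred log value (colour, log units read as log2) of the 34 members (rows, grouped by role) in the 6 strain columns, each cell being 1 pooled value. The subunits of polymerases I and III are mostly red in the columns of PHO23 deleted and PHO23 CLIB215, with medians of 0.44 and 0.58, and the TFIIIC genes do not follow them.

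The first comparison at PHO23 sets the deletion against the T73 allele. All 19 subunits that polymerase II does not use were higher in the column titled PHO23 deleted. Their differences were 0.06 to 1.04, with a median of 0.51. Over all complete ORFs 46.9% were above 0 and the median was -0.04. Of the 34 members, 25 were above 0, with a median of 0.35. RRN3 and 3 subunits were higher by at least 1 unit, which is 4 of 34 members, against 4.52% of all ORFs, and no member was lower by that much, against 3.95%. At 0.5 units, 10 of the 19 were higher, against 15.7% of all ORFs, and none was lower, against 17.6%.

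RRN3, whose product recruits polymerase I to the ribosomal DNA promoter, differed by 1.30. Its values were 0.53 in PHO23 deleted, -0.77 with PHO23 T73 and 0.31 with PHO23 CLIB215, and -0.37, -0.20 and 0.38 in the columns of RXT3 labelled deleted, T73 and CLIB215. The PHO23 T73 column was the lowest of all 6 for this gene and the PHO23 deletion the highest. RPA43, whose product forms part of the polymerase I stalk to which Rrn3 binds, differed by 1.04, with 0.76 in PHO23 deleted and -0.27 with PHO23 T73. RPA49, of a heterodimer with Rpa34 that is particular to polymerase I, had 0.73 and -0.27 in the same columns and differed by 1.01.

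The largest polymerase I subunit gene RPA190 (YOR341W, chromosome XV, 960987 to 965981) had 0.71 in PHO23 deleted, -0.19 with PHO23 T73 and 0.58 with PHO23 CLIB215. In the columns of RXT3 labelled deleted, T73 and CLIB215 it had -0.09, 0.03 and -0.19. It thus stood high in PHO23 deleted and PHO23 CLIB215 and near or below 0 elsewhere. Its partner in the catalytic core, RPA135 (YPR010C, chromosome XVI, 577585 to 581196), had 0.69, 0.04 and 0.73 in PHO23 deleted, T73 and CLIB215, and -0.40, -0.06 and -0.26 in the RXT3 columns in that order. The differences between PHO23 deleted and T73 were 0.90 for RPA190 and 0.65 for RPA135. RPA12, a small subunit that takes part in RNA cleavage, was the member of polymerase I with the smallest difference, 0.06.

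Among polymerase III subunits, RPC31, of the trimer that helps the enzyme to start, differed by 1.04, with 0.84 in PHO23 deleted and -0.20 with T73. Its trimer partners RPC82 and RPC34 differed by 0.79 and 0.74. The largest subunit gene RPO31 (YOR116C, chromosome XV, 539763 to 544145) differed by 0.42, and RET1 (YOR207C, chromosome XV, 730008 to 733457), for the second largest subunit, by 0.57. All 10 genes particular to polymerase III were above 0, with a median of 0.49, and the 7 of polymerase I had a median of 0.75.

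The remaining roles had no common direction, with RRN3 higher as given above. Of the 6 TFIIIC genes 4 were below 0, against 53.1% of all ORFs, with a median of -0.28, led by TFC8 (-0.76), TFC3 (-0.69), which codes for the largest TFIIIC subunit, and TFC6 (-0.44). Both TFIIIB genes were lower, BRF1 at -0.34 and BDP1 at -0.23. MAF1 (YDR005C, chromosome IV, 456836 to 458103), the polymerase III repressor, differed by -0.70, with values of -0.28 in PHO23 deleted and 0.42 with PHO23 T73. The 5 subunits shared by all 3 enzymes had a median of 0.005, and RPC10, at 0.71, was the only one of them past 0.5. If the columns are named by the genotype field, the median of the 19 subunits shrinks to 0.21 and that of all members to 0.13. Only 13 of the 19 are then above 0, against 49.2% of all ORFs, and no member passes 1 unit. With all columns scaled to one SD, 1 member passes it. The share of all ORFs past 1 unit was not counted under either setting.

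**Figure D3:**
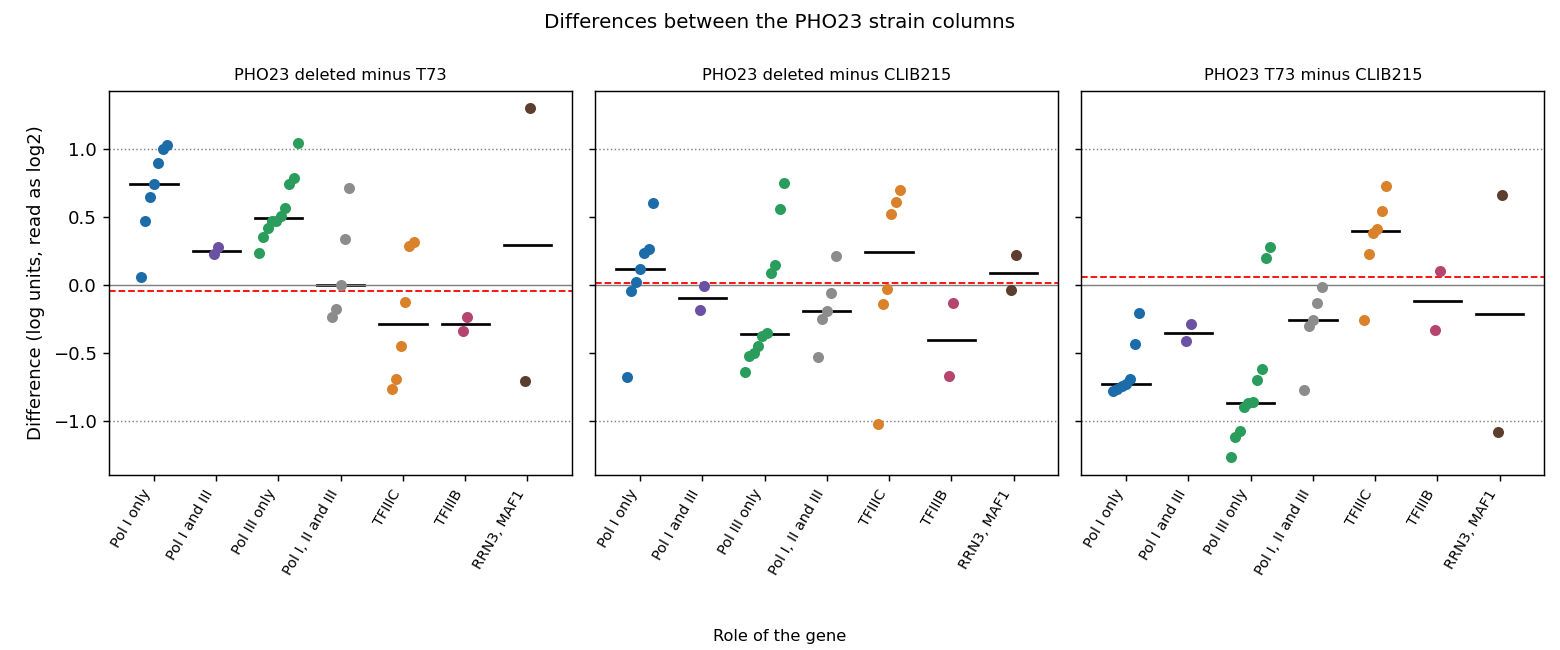
Difference (log units, read as log2) of each member between the PHO23 columns, as deleted minus T73 (left), deleted minus CLIB215 (middle) and T73 minus CLIB215 (right), with members grouped by role on the x axis. Points are genes, black bars the median of a role, dotted lines 1 unit and red dashed lines the median of all complete ORFs; polymerase I and III subunits lie above 0 on the left, on both sides of 0 in the middle and mostly below 0 on the right.

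The natural alleles of PHO23 were set against each other next. With T73 17 of the 19 subunits were lower than with CLIB215, against 45.4% of all ORFs below 0, and their median was -0.73 against 0.06 for all ORFs. This comparison and the preceding one share the PHO23 T73 column, so that each gene's deviation in that column enters both. By at least 1 unit 4 of 34 members were lower, against 4.36% of all ORFs, and none was higher, against 4.44%. By at least 0.5 units 13 of the 19 were lower, against 15.6%.

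RPC34 (YNR003C, chromosome XIV, 634344 to 635297), of the initiation trimer, differed most, by -1.26. It had -0.57 with PHO23 T73 and 0.70 with PHO23 CLIB215, with 0.18 in PHO23 deleted and -0.32, -0.27 and -0.03 in the columns of RXT3 labelled deleted, T73 and CLIB215. Its lowest and its highest value were thus those of the PHO23 alleles. RPC17, whose product pairs with Rpc25 in the polymerase III stalk, differed by -1.11, RRN3 by -1.08 and RET1 by -1.07.

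RET1 had -0.23 with PHO23 T73 and 0.84 with PHO23 CLIB215, and the largest subunit gene RPO31 had 0.05 and 0.91 in these columns, a difference of -0.87. In the polymerase I core the difference was -0.78 for RPA190 and -0.69 for RPA135. All 7 polymerase I genes were lower with T73, from -0.78 to -0.20 for RPA14, of its stalk. The exceptions among the 19 were RPC37 at 0.28 and RPC11 at 0.21. Both act with Rpc53 in termination by polymerase III, and RPC53 itself differed by -0.86.

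In the opposite direction were 5 of the 6 TFIIIC genes, against 54.6% of all ORFs above 0, with a median of 0.40, and MAF1. TFC1, which codes for a subunit that contacts the A block of the internal promoter, was higher with T73 by 0.73, TFC3 by 0.55 and TFC6 by 0.42, while TFC8 was lower at -0.26. MAF1 had 0.42 with PHO23 T73 and -0.25 with PHO23 CLIB215, a difference of 0.67. The shared subunits were all 5 below 0, from -0.77 for RPC10 to -0.02 for RPB5. Titles and genotype field name both columns alike, and with all columns scaled to one SD the median of the 19 was -0.66.

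Between the PHO23 deletion and the CLIB215 allele the 19 subunits divided almost evenly, with 9 above 0 and 10 below and a median of -0.0032, against 51.4% of all ORFs above 0 and 48.6% below. The polymerase I genes had a median of 0.12 and those of polymerase III one of -0.36. TFC8, a subunit of the TFIIIC part that holds the B block, was the only member past 1 unit, at -1.02, against 1.25% of ORFs lower and 1.96% higher by that much. It had -0.67 in PHO23 deleted and 0.34 with PHO23 CLIB215.

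Next lowest in the deletion were RPA12 at -0.68, BRF1, the TFIIB-like subunit of TFIIIB, at -0.67 and RPC17 at -0.64, and the highest were RPC37 (0.76), TFC4 (0.70), TFC1 (0.61) and RPA43 (0.61). RPA190, RPA135, MAF1 and RRN3 differed by 0.12, -0.04, -0.03 and 0.22, and RPO31 and RET1 by -0.44 and -0.50. The genotype field's names would put the median of the 19 at -0.43. The comparison shares its columns with the other comparisons at PHO23, and without replicates a small difference does not show that the strains express these genes alike.

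The same alleles were compared at RXT3. With T73 over CLIB215 the median of the 19 subunits was 0.20, with 13 above 0 against 51.6% of all ORFs, and all 7 polymerase I genes were higher, by 0.13 to 0.46. RPC17 (YJL011C, chromosome X, 414285 to 414770) was higher by 1.46 and TFC8 by 1.07, which makes 2 of 34 members past 1 unit, against 1.37% of all ORFs, and no member was lower by as much, against 0.827%.

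RPC17 had -0.08, 0.47 and -0.99 in the columns of RXT3 labelled deleted, T73 and CLIB215, and 0.09, -0.38 and 0.73 in PHO23 deleted, T73 and CLIB215. Its range of 1.72 units was the widest of the 34, and the RXT3 CLIB215 value lay by itself at the low end. TFC8 likewise had its lowest value, -0.81, with RXT3 CLIB215, against 0.26 with RXT3 T73. RPC31 was higher by 0.80 and the TFIIIB gene BDP1 by 0.62.

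Lowest with RXT3 T73 were RRN3 (-0.58), RPC53 (-0.31), TFC4 (-0.31) and RPC10 (-0.28). RPA190 differed by 0.22, RPA135 by 0.20, RET1 by 0.09, RPO31 by -0.03 and MAF1 by 0.18. Naming the columns by the genotype field turned the median of the 19 to -0.79, RPC17 to -1.09 and TFC8 to -0.13, so that the direction at this locus rests on the titles.

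Against RXT3 T73, the column labelled RXT3 deleted had 14 of the 19 subunits lower, with a median of -0.21, against 48.9% of all ORFs below 0. No member passed 1 unit, against 1.21% of ORFs higher and 1.67% lower. RPC11, of RNA cleavage by polymerase III, was lowest at -0.60, before RPA49 (-0.56), RPC17 (-0.55) and RPC31 (-0.40). TFC7 (0.85), TFC6 (0.67), RPC53 (0.53) and RET1 (0.48) were highest. RPA190, RPA135 and RPO31 differed by -0.12, -0.33 and -0.25, and MAF1 and RRN3 by -0.30 and -0.16.

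Set against RXT3 CLIB215, the column labelled RXT3 deleted was higher by at least 1 unit in TFC7 (1.05) and TFC6 (1.04), which is 2 of 34 members against 0.989% of all ORFs, and no member was lower by that much, against 1.33%. Both genes had their highest value of all in the column labelled RXT3 deleted, 0.81 for TFC7 and 0.69 for TFC6, with -0.23 and -0.35 for RXT3 CLIB215. Their products sit in different parts of TFIIIC, Tfc7 with Tfc1 and Tfc6 on the B block. TFC4, the TFIIIC subunit that contacts TFIIIB, differed by -0.53, so the complex had no common direction.

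Of the 19 subunits 10 were above 0 here, against 53.0% of all ORFs, and their median was 0.10. RPC17 (0.91) and TFC8 (0.86) followed the highest genes, RRN3 was lowest at -0.74, and RPC11 (-0.51) and RPC10 (-0.42) were also low. RPA190 and RPA135 stood at 0.10 and -0.14, RPO31 and RET1 at -0.28 and 0.58, and MAF1 at -0.12. All comparisons at RXT3 share columns in pairs, and the values of RPC17, TFC8 and RRN3 with RXT3 CLIB215 enter 2 of them. With all columns scaled to one SD, 4 members would pass 1 unit here, and the share of all ORFs that would was not counted. The genotype field would put the median of the 19 at 0.10 against RXT3 T73 and at -0.65 against RXT3 CLIB215.

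**Figure D4:**
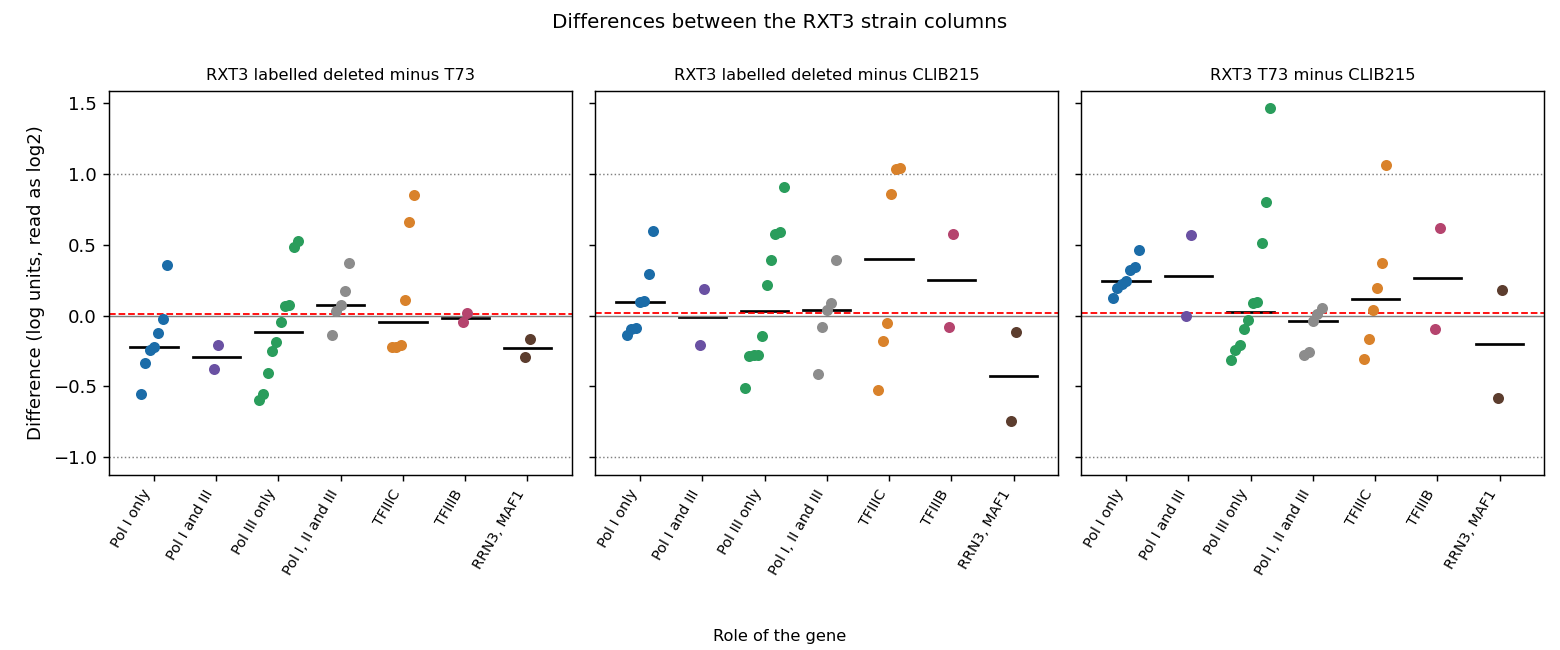
Difference (log units, read as log2) of each member between the RXT3 columns, as labelled deleted minus T73 (left), labelled deleted minus CLIB215 (middle) and T73 minus CLIB215 (right), with members grouped by role on the x axis. Points are genes, black bars medians of a role, dotted lines 1 unit and red dashed lines the median of all complete ORFs; no point lies below -1, and RPC17 at 1.46 and TFC8 at 1.07 stand above 1 on the right.

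The columns labelled as deletions were also compared across loci. Where RXT3 was labelled deleted, 17 of the 19 subunits were lower than where PHO23 was, with a median of -0.65, against 47.6% of all ORFs below 0. RPA135 (-1.09) and TFC4 (-1.07) were lower by at least 1 unit, 2 of 34 members against 4.74% of ORFs, and none was higher by that much, against 4.28%. RPC37 (-0.98), RPA49 (-0.92), RPO31 (-0.91), RRN3 (-0.90), RPC31 (-0.82) and RPA190 (-0.79) followed. RET1 and RPA12 went the other way, at 0.20 and 0.19. RET1 stood at 0.54 in the column labelled RXT3 deleted and at 0.34 in PHO23 deleted.

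In this comparison 5 of the 6 TFIIIC genes were higher, against 52.4% of all ORFs, led by TFC6 (0.99), TFC7 (0.75), TFC8 (0.73) and TFC3 (0.72), with a median of 0.72, and MAF1 was higher by 0.44. TFC3 had -0.05 in the column labelled RXT3 deleted and -0.77 in PHO23 deleted. By the genotype field the median of the 19 would be -0.21 and no member would pass 1 unit, and 1 would with all columns scaled to one SD. For neither setting was the share of all ORFs counted.

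With the CLIB215 allele at RXT3 instead of PHO23, 18 of the 19 subunits were lower, with a median of -0.77, against 47.5% of all ORFs. Lower by at least 1 unit were RPC17 (-1.72), TFC8 (-1.15), RPO31 (-1.07), RPC31 (-1.06) and RPC40 (-1.03), a subunit of both enzymes, which is 5 of 34 members against 4.54% of ORFs, and none was higher by as much, against 4.42%. RPA135 (-0.99), RET1 (-0.88) and RPA190 (-0.78) were close behind, and RPC11 (0.32) was the exception among the 19. TFC3 (0.76), TFC1 (0.68) and MAF1 (0.52) were highest, and RRN3 differed by 0.07. Under the genotype field this difference would be that between PHO23 deleted and PHO23 CLIB215 by title, with a median of -0.0032 for the 19.

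With the T73 allele at RXT3 instead of PHO23 the differences were smaller. The 19 had a median of 0.21, with 13 above 0, against 49.2% of all ORFs, and no member passed 1 unit, against 2.04% higher and 1.01% lower. RPC17 (0.85), RPA49 (0.64), RPC31 (0.63) and RRN3 (0.57) were highest, and RPC37 (-0.57), TFC4 (-0.54), RPC53 (-0.32) and the shared subunit gene RPO26 (-0.24) were lowest. RPA190, RPA135, RPO31, RET1 and MAF1 differed by 0.23, -0.10, -0.24, 0.29 and 0.03. The genotype field would turn the median of the 19 to -0.0469.

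**Figure D5:**
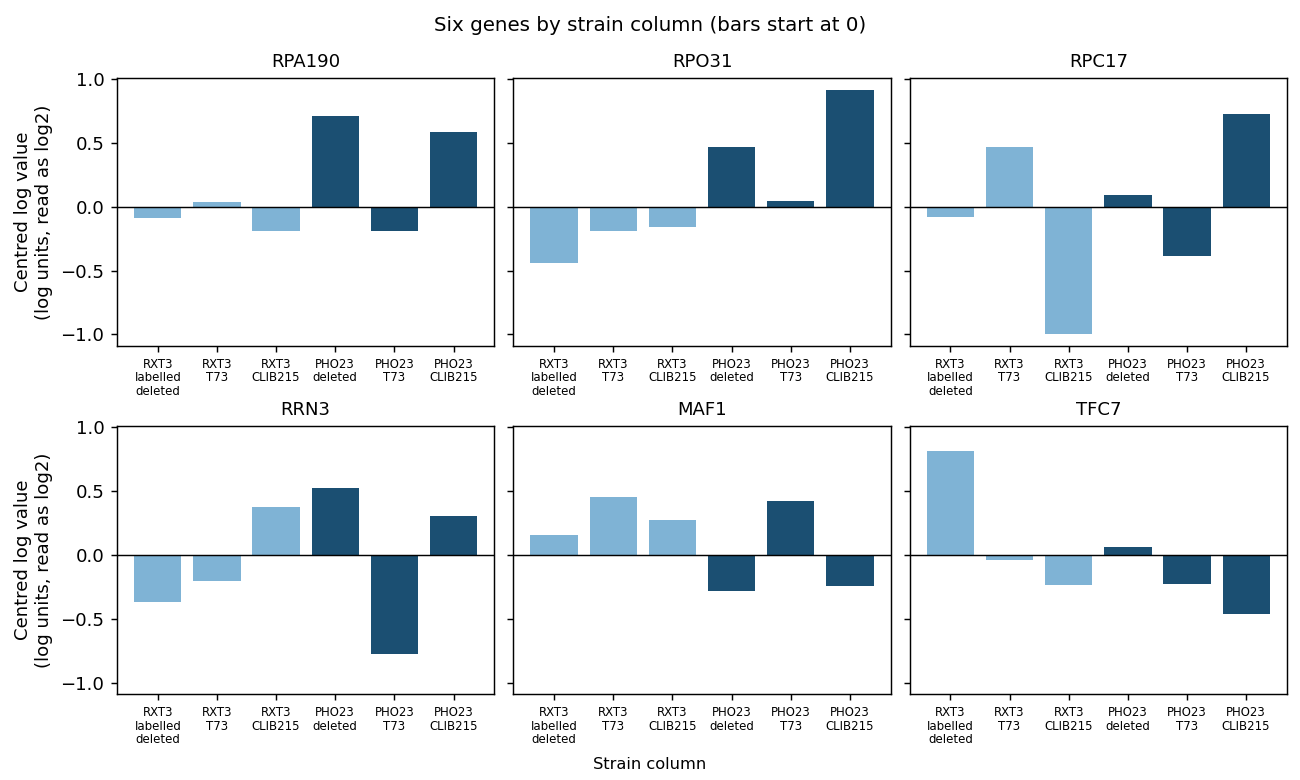
Centred log value (log units, read as log2) of 6 members in the 6 strain columns, each bar being 1 pooled value drawn from 0, light for the RXT3 columns and dark for the PHO23 columns. RPA190 and RPO31 are highest in PHO23 deleted and PHO23 CLIB215, MAF1 is below 0 in just these columns (-0.28 and -0.25), RPC17 is lowest with RXT3 CLIB215 (-0.99), RRN3 lowest with PHO23 T73 (-0.77) and TFC7 highest in the column labelled RXT3 deleted (0.81).

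Polymerases I and III are built on the same plan, and 7 pairs of homologous subunits could be set side by side. In PHO23 deleted over T73 both partners were above 0 in 7 of 7 pairs, as all 19 subunits were. By the genotype field that comparison would be the one titled T73 across loci, with 2 of 7 pairs of like sign. For the T73 over the CLIB215 allele of PHO23 the partners had the same sign in 5 of 7 pairs. This follows from the signs of the single subunits, since RPC37 and RPC11, the exceptions among the 19, fall in separate pairs. No share of like-signed pairs over other genes was counted for any comparison. In the other comparisons at PHO23 and RXT3 and across loci, which share columns with these, the count ranged widely. It was 2 of 7 for PHO23 deleted over CLIB215, for the column labelled RXT3 deleted over RXT3 CLIB215 and for T73 across loci, and 3 of 7 for RXT3 T73 over CLIB215 and the column labelled RXT3 deleted over RXT3 T73. Across loci it was 5 of 7 for the columns labelled deleted and 6 of 7 for CLIB215. For PHO23 T73 over CLIB215, the stalk gene RPA43 differed by -0.43 and its counterpart RPC25 by -0.61, and RPA14 by -0.20 and RPC17 by -1.11. In that comparison the pairs of unlike sign were RPA12 (-0.74) with RPC11 (0.21) and RPA49 (-0.77) with RPC37 (0.28).

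Outside the members, the medians of genes with a PAC match had the same directions. Of complete ORFs that are not members, 793 had PAC in the window and 4027 did not. In PHO23 deleted over T73 their medians were 0.24 with PAC and -0.08 without, and for PHO23 T73 over CLIB215 they were -0.22 with PAC and 0.11 without. For the 220 non-members with both PAC and RRPE the medians were 0.58 and -0.49 in these comparisons. The 3 subunits without either motif, RPA12, RPC17 and RPC11, had a median of 0.35 and of -0.74 in the same comparisons, against 0.61 and -0.71 for the 16 with PAC. A match describes letters in a window and shows no binding, and the part of any factor in these differences was not tested.

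Other genes linked to the RNA polymerases of the nucleus were listed by role. The 7 genes for polymerase assembly and nuclear import were all higher in PHO23 deleted than with T73, with a median of 0.85, against 46.9% of all ORFs above 0, and 3 of them were past 1 unit, against 4.52%. These were BUD27 (1.23), RTP1 (1.17) and RBA50 (1.05). The list was not divided by the polymerase that each product serves. With PHO23 T73 over CLIB215, 6 of the 7 were below 0, against 45.4% of all ORFs, and RTP1 differed by -1.81. RTP1 had 0.43, -0.74 and 1.07 in PHO23 deleted, T73 and CLIB215, and -0.53, 0.03 and -0.88 in the columns of RXT3 labelled deleted, T73 and CLIB215.

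The 10 other initiation factors had no common direction. RRN5 and RRN10, of the upstream activating factor of polymerase I, lacked complete values, and the other 8 had a median of -0.09 in PHO23 deleted over T73. RRN11, of the core factor, was higher by 1.01. PZF1, which codes for TFIIIA, the factor of the 5S gene, differed by -0.85. Its values were -0.69 in PHO23 deleted and -0.72 in the column labelled RXT3 deleted, against 0.16 to 0.56 in the 4 columns titled as alleles. This split rests on the titles, since the genotype field would make the column titled RXT3 T73 (0.23) the PHO23 deletion. The share of all ORFs with such a split was not counted.

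The 7 subunits that only polymerase II uses were listed beside the members. In PHO23 deleted over T73 they had 6 of 7 below 0 and a median of -0.18, against 53.1% of all ORFs below 0 and a median of -0.04 over them, and for T73 over CLIB215 a median of 0.13, against 0.06 over all ORFs. Its largest subunit gene RPO21 differed by -0.45 and 0.12 in these comparisons, against 0.90 and -0.78 for RPA190 and 0.42 and -0.87 for RPO31. No test of the difference between these lists can be made with 1 value per strain.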

How the data were processed

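Libraries were made from fragmented RNA selected on poly-dT beads, with barcoded primers holding a unique molecular identifier, per the labels' protocols. The submitters' processing notes name Bowtie and R64. How molecules were counted, filtered, normalized, pooled over the 3 libraries of a group and centred is not given in the sources used here. The authors deposited 1 table of 6701 rows, 51 of them without ORF name, with 1 column of log values per group, read here as log2. Sums of 0 were counted within a tolerance of 1e-06. Columns were matched to groups by the sample titles.

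Differences, medians and counts were computed with Python 3.11.15 and pandas 2.3.3 over the 4956 complete ORFs. Only the step that gives medians and counts of a difference was tested on simulated data. No test was possible. Gene names, coordinates and sequences came from RefSeq, build R64, in which all 34 members were found. The annotated start is the start codon. RPA14 overlaps a neighbouring ORF on its strand. Members and lists were chosen with earlier results of these data known. The text names, per comparison, members past 1 unit, up to 4 with the largest difference in each direction, and RPA190, RPA135, RPO31, RET1, MAF1 and RRN3 throughout. Alternatives were the genotype field's names, ORFs with values in just the columns compared, columns centred or scaled, and a bound of 0.5 units.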

Additional observations from a re-analysis of the deposited data

Results flagged for a closer look

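RPC17, the stalk subunit gene of polymerase III, differed between the T73 and CLIB215 alleles in opposite directions at the 2 loci, by 1.46 at RXT3 and by -1.11 at PHO23. The difference at RXT3 less that at PHO23 is 2.58 units. RPC17 was the only member past 1 unit at both loci with opposite signs, and 18 of the 4956 complete ORFs were so. The difference between loci was not tested, since each strain has 1 pooled value, and naming the columns by the genotype field turns the RXT3 value to -1.09.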

How the results depend on the processing

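No paired analysis was possible because the columns carry no replicate number, and for the same reason no replicate could be left out. With no replicate spread, a value was taken as moved when it changed by over 0.1 units and by over 1.5 times or in sign. Using ORFs with values in the columns compared could move nothing here, since all 34 members had a value in every column. Centring each column on its median shifts all differences of a comparison by the same amount. The column medians lay between -0.02 and 0.05, so by this rule no median could move. Counts over the members did not move either. Scaling the columns to one SD moved no median, but changed the count of members past 1 unit to 1 for PHO23 deleted over T73, 0 for PHO23 deleted over CLIB215, 4 for the column labelled RXT3 deleted over CLIB215, 1 for that column over PHO23 deleted and 3 for CLIB215 at RXT3 over PHO23. For a bound of 0.5 units, each count out of 34 members is given with the share of all complete ORFs past it in either direction. The counts became 18 for PHO23 T73 over CLIB215 (34.6%), 15 for PHO23 deleted over T73 (33.3%) and 12 over CLIB215 (23.6%). At RXT3 they became 7 for T73 over CLIB215 (19.5%). For the column labelled RXT3 deleted they became 6 over T73 (21.6%) and 11 over CLIB215 (17.9%). Across loci they became 17 for the columns labelled deleted (35.8%), 6 for T73 (20.3%) and 18 for CLIB215 (35.0%).

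Naming the columns by the genotype field moved most values. Medians of the 34 members became 0.13 and -0.27 for PHO23 deleted over T73 and CLIB215, -0.31 for RXT3 T73 over CLIB215, -0.0066 and -0.31 for the column labelled RXT3 deleted over T73 and CLIB215, and -0.13, -0.0467 and -0.0369 for the columns labelled deleted, T73 and CLIB215 across loci. The medians of the 19 subunits changed sign for RXT3 T73 over CLIB215 (-0.79), the column labelled RXT3 deleted over T73 (0.10) and over CLIB215 (-0.65), and T73 across loci (-0.0469). Among single differences of at least 1 unit, 3 changed sign. These were RPC17 (-1.09) and TFC8 (-0.13) for RXT3 T73 over CLIB215 and RPC31 (0.15) for CLIB215 across loci. A further 206 differences of single members moved and 97 did not. Smaller differences that changed sign are among those moved and are not listed. Counts past 1 unit became 0 and 2 for PHO23 deleted over T73 and CLIB215, 2 for the column labelled RXT3 deleted over T73, and 0, 1 and 1 for the columns labelled deleted, T73 and CLIB215 across loci. PHO23 T73 over CLIB215 was untouched. Shares of all ORFs past 1 unit were not counted under these names or after scaling, so those counts have no background. With the 8-letter PAC motif (GCGATGAG), 6 instead of 18 members had a match. Depth is unknown and limits every value.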

Other observations

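Signalling genes that act on these polymerases in yeast were listed apart, and 13 of 14 had complete values. In PHO23 deleted over T73 their median was -0.02. TOR1, a kinase gene of the nutrient-sensing TOR complex, was higher by 1.48, with 0.68 in PHO23 deleted, -0.79 with PHO23 T73 and -0.69 with PHO23 CLIB215, and -0.03, -0.07 and 0.34 in the columns of RXT3 labelled deleted, T73 and CLIB215. SCH9, whose kinase phosphorylates Maf1, was higher by 0.47. MCK1, another kinase gene, differed by -1.15, and the casein kinase 2 gene CKB2 by -0.82. For PHO23 T73 over CLIB215, TOR1 differed by -0.10, SCH9 by -0.05, MCK1 by 1.21 and CKB2 by 0.66.

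The transcription factor gene SFP1, an activator of ribosome assembly genes, had -0.41 in the column labelled RXT3 deleted and 0.82 with RXT3 T73, a difference of -1.23. DOT6, which codes for a repressor that binds PAC, ranged from -0.07 to 0.37 over the 6 columns. Its paralog TOD6 had no value with PHO23 T73 and lay between -0.77 and 0.47 in the other columns.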
